A study of Mus musculus with 6 samples.

Results

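The Wnt ligands, their receptors and the proteins that modulate the signal were followed in newborn mice. Retrosplenial cortex and subiculum of mice that carried the D6/Zbtb20S transgene were set against those of wildtype mice. Members were chosen by symbol alone: the Wnt, Fzd, Rspo, Dkk, Sfrp, Lgr, Axin and Dvl families, with Frzb, Wif1, Lrp5, Lrp6, Ctnnb1, Apc, Gsk3b, Tcf7, Tcf7l1, Tcf7l2, Lef1, Znrf3 and Rnf43. The array named 61 of them, out of 18193 genes tested, and Tcf7 was not analysed here. The 61 members had 124 probe sets, and 40 members had more than 1. Each gene was read on its probe set with the highest mean over the 6 arrays, and further probe sets are described for the members where they bear on a result. In 27 of the 40 members all probe sets had changes of the same sign.

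Expression was measured on Affymetrix 3' arrays at postnatal day 1, in 3 wildtype and 3 D6/Zbtb20S transgenic samples, all of the C57BL/6 background. Each array held RNA pooled from 7 animals. The transgene carries Zbtb20, a zinc finger repressor of hippocampal pyramidal neurons, and the labels call the transgenic tissue CA1-transformed, CA1 being a field of the hippocampus. The element that drives the transgene and the number of founder lines are not described in the sources used here, nor is it said whether different pools of a genotype drew on different litters. The p-values therefore cover only pool-to-pool spread.

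Wnt proteins are secreted lipid-modified ligands that bind Frizzled receptors, alone or together with the co-receptors Lrp5 and Lrp6. In the canonical branch the signal passes through Dishevelled and halts the destruction of beta-catenin by a complex of Axin, Apc and Gsk3b, and beta-catenin then acts with TCF/LEF factors in the nucleus. In the developing forebrain the pathway is known for patterning the medial cortical wall and hippocampus, for progenitor growth and for axon and vessel development.

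On the 1 probe set of Zbtb20 that differed, wildtype replicates 1, 2 and 3 read 6.44, 5.84 and 7.64 on the log2 scale and the transgenic arrays 8.88, 9.10 and 8.94, a change of 2.33 ± 0.37 (limma adjusted p = 0.00904 over all probe sets). On every Zbtb20 probe set the highest wildtype array was replicate 3, and counts without it are given beside the counts that lead. In wildtype tissue Neurod6 of cortical excitatory neurons read 10.09 ± 0.10 (SD, n = 3 here and below), Tshz2 of retrosplenial cortex 8.72 ± 0.18 and Nts of subiculum 11.28 ± 0.25. Transgenic means were 9.95 ± 0.21, 4.52 ± 0.19 and 8.78 ± 0.11, and all 4 subiculum markers and 3 of 4 retrosplenial markers were lower. The fourth retrosplenial marker, Lypd1, was higher (0.48, adjusted p = 0.0492). Of 9 markers of cortical excitatory neurons 2 were higher, Neurod2 (1.12) and Camk2a (0.65), and 1 was lower, Tbr1 (-1.41). Of 10 microglial markers 4 were higher, with a summed signal of 609 to 648 on wildtype and 797 to 925 on transgenic arrays. Of 11 markers of astrocytes and radial glia 1 was lower, Sox2 (-0.42, 9.09% passed), and of 8 endothelial markers 1, Slc2a1 (-0.36, 12.5% passed). Of 5 markers of dentate granule cells 0 passed in limma, and 1 had an unadjusted p under 0.05. Of 7 oligodendrocyte markers 4 were lower, Olig1, Olig2, Cnp and Mbp (979 to 1161 against 702 to 782). Of 10 GABAergic markers 2 were lower, Gad1 (-0.60) and Nxph1 (-0.55), and the other 8 had changes from -0.29 to 0.14. The summed GABAergic signal, in which Gad1 was the brightest gene, was 1053 to 1103 against 854 to 911. The shares that passed were 33.3% of excitatory, 40% of microglial, 57.1% of oligodendrocyte and 20% of GABAergic markers, beside 7.71% of all genes. Of 10 thalamic markers 1 was lower (10%), namely Slc17a6, which is also expressed in subiculum and was counted among the 4 subiculum markers too. The other Slc17a6 probe set had a change of 0.11 and did not pass (limma adjusted p = 0.897 over all probe sets). Among markers of choroid plexus (8), meninges (10) and cortical hem with Cajal-Retzius cells (7), 0 passed in limma, and at an unadjusted p under 0.05 it was 0, 0 and 2. The median change of the 7 hem markers was -0.23. Rspo3, which was lower, was also listed as a hem marker but was counted as a member only. RMA signals have no zero, but 6 of the 8 choroid plexus markers lay under the array median in both genotypes. In tissue RNA, fewer cells of a type and less RNA per cell cannot be told apart, and the part of these cell types in the changes that follow was not tested.

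Of the 61 members, 12 (19.7%) passed limma's test at an adjusted p of 0.05, beside 7.71% of all genes tested. In transgenic tissue 4 members were higher (4.06% of all genes) and 8 were lower (3.64%). The lower ones were the R-spondins Rspo2 and Rspo3, the secreted modulators Dkk3 and Sfrp1, the feedback inhibitor Axin2 and the ligands Wnt2, Wnt16 and Wnt5b. The higher ones were the Frizzled receptors Fzd7, Fzd1 and Fzd8 and the ligand Wnt7b. A change of at least 2-fold was called in 3 members, Rspo2, Dkk3 and Fzd7, and in 1.45% of all genes. The 3 wildtype and 3 transgenic arrays did not overlap in 22 members (36.1%), beside 26.1% of all genes. The median change over all members was -0.08 on the log2 scale, beside -0.02 over all genes, and the median size of the change was 0.16 beside 0.10. Without wildtype replicate 3 there were 4 members higher and 7 lower. These held 9 of the 12, and Lgr6 and Rnf43 entered. The higher count fell to 1 without wildtype replicate 2 or without D6/Zbtb20S replicate 1, and to 2 without either of the remaining transgenic arrays. The lower count stayed at 6 or 7 whichever array was left out. The members behind these counts changed, since 7 to 10 of the 12 kept their call.

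**Figure D1:**
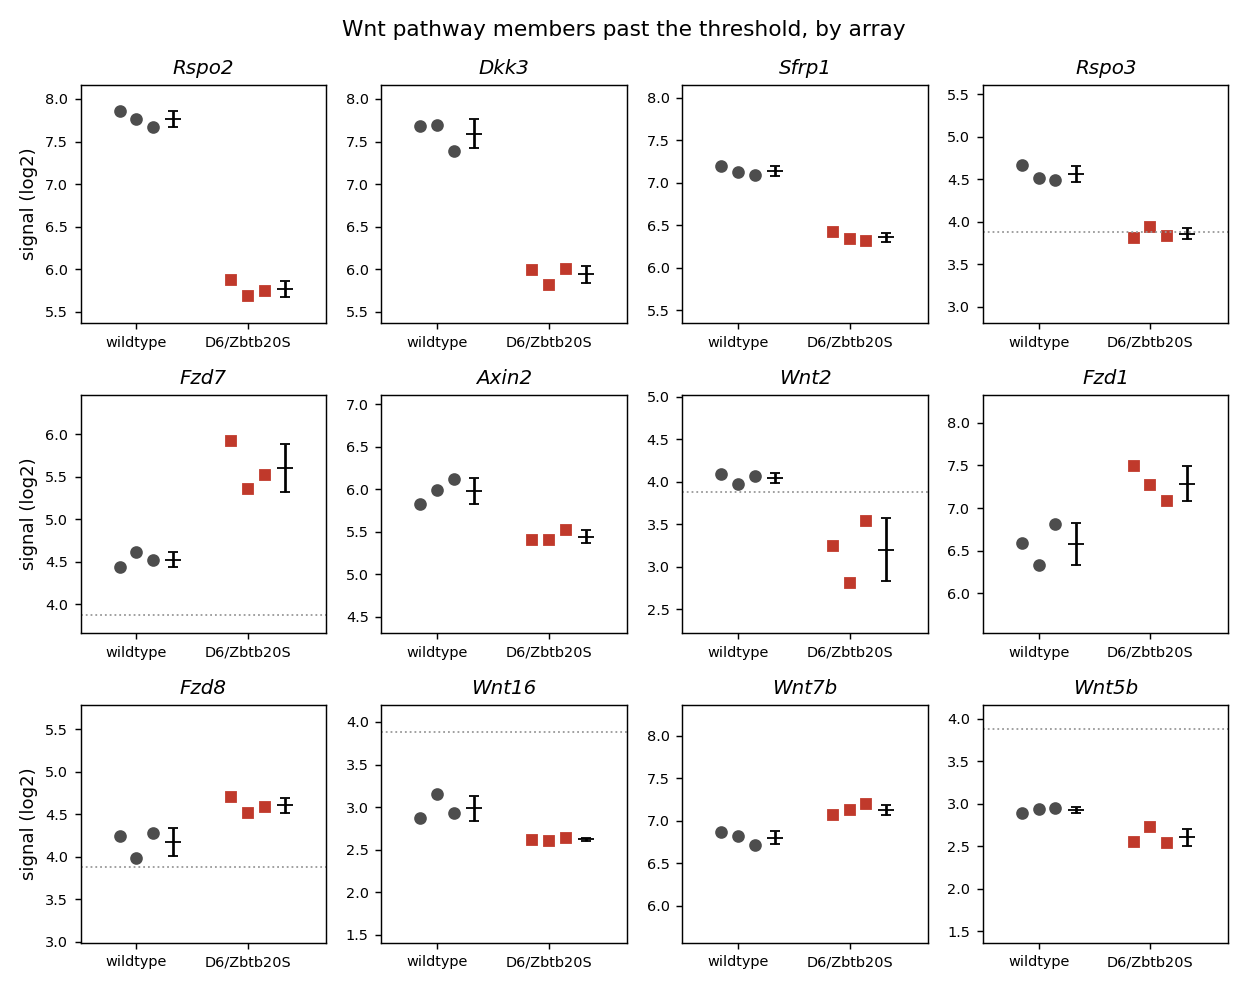
Signal (log2, y axis) of the 12 members past the threshold on each array, with wildtype arrays as grey circles and D6/Zbtb20S arrays as red squares. Black marks are the mean ± SD (n = 3), and every panel spans the same number of log2 units. The dotted line is the array median, which lies below the range shown in the panels of the brighter genes. The genotypes do not overlap in any panel, the gap is widest for Rspo2 (means of 7.77 and 5.76), and Wnt16 and Wnt5b lie under the array median in both genotypes.

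The R-spondins showed the largest single change among the members. R-spondins are secreted proteins that bind the receptors Lgr4, Lgr5 and Lgr6 and the membrane ubiquitin ligases Znrf3 and Rnf43, which otherwise remove Frizzled receptors from the cell surface. Rspo2 read 7.86, 7.77 and 7.67 on wildtype replicates 1, 2 and 3 and 5.87, 5.68 and 5.74 on the transgenic arrays. Every transgenic array lay far below the lowest wildtype array, and each genotype's arrays lay close together. The change was -2.00 ± 0.09, or 4.01-fold lower (limma adjusted p = 2.09e-06), which placed Rspo2 at rank 12 of the 18193 genes by p-value. Rspo3 read 4.66, 4.52 and 4.49 on wildtype and 3.81, 3.94 and 3.84 on transgenic arrays. It was 1.62-fold lower (-0.70 ± 0.08, adjusted p = 0.000745), and in transgenic tissue its signal lay close to the array median, where RMA can compress changes. The second probe sets of both genes were dim and did not pass, with changes of -0.14 for Rspo2 and -0.39 for Rspo3. As the mean of its probe sets Rspo2 changed by -1.07 (adjusted p = 5.64e-05).

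The remaining 7 genes of the R-spondin system did not pass, with changes from -0.28 to 0.39. Rspo1 and Rspo4 were under the array median in both genotypes. The receptor Lgr4 read 6.78, 6.80 and 7.02 on wildtype and 7.32, 7.06 and 7.06 on transgenic arrays, which did not overlap (0.28 ± 0.10, adjusted p = 0.157, 95% interval 0.05 to 0.51). Rnf43, also under the array median, read 2.16, 2.08 and 2.49 on wildtype and 2.76, 2.54 and 2.59 on transgenic arrays (0.39 ± 0.12, adjusted p = 0.0843). Rnf43 passed without wildtype replicate 3, at 0.51 (adjusted p = 0.0121). Lgr5 and Znrf3 had changes of 0.21 and 0.16, and Lgr6 one of -0.28. Lgr6, which lay under the array median, passed without wildtype replicate 3 too. In the R-spondin system the genotypes did not overlap in 5 of 9 members (55.6%), beside 26.1% of all genes. Of the 9, 2 passed (22.2%, beside 7.71% of all genes).

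Among 10 secreted antagonists 2 fell and 0 rose (20% passed, beside 7.71% of all genes). Dkk3 is a divergent relative of the Dickkopf proteins and is counted among the antagonists by its family name. Other Dickkopf proteins are known for blocking the LRP co-receptors, and whether Dkk3 does so was not tested. Dkk3 read 7.68, 7.69 and 7.39 on wildtype and 6.00, 5.82 and 6.00 on transgenic arrays. It was 3.14-fold lower (-1.65 ± 0.10, adjusted p = 1.66e-05), and its other probe set changed by -1.50 ± 0.08 (adjusted p = 5.77e-05 over all probe sets). Sfrp1 encodes a secreted protein with a Frizzled-like domain that binds Wnts. It read 7.20, 7.12 and 7.09 on wildtype and 6.42, 6.34 and 6.32 on transgenic arrays, a narrow spread within each genotype. It was 1.72-fold lower (-0.78 ± 0.08, adjusted p = 0.00023). All 5 Sfrp1 probe sets had negative changes, from -1.13 to -0.20, and on all 5 the genotypes did not overlap, while 2 of the 5 passed over all probe sets. The other 8 antagonists had changes from -0.16 to 0.12 on the probe sets that stand for them, with an adjusted p of at least 0.44. They were Dkk1, Dkk2, Dkk4, Sfrp2, Sfrp4, Sfrp5, Frzb and Wif1, and Dkk1, Dkk2, Dkk4 and Wif1 were under the array median in both genotypes. The second Sfrp5 probe set, itself dim, was higher, at 3.13, 3.14 and 3.15 on wildtype and 3.61, 3.51 and 3.75 on transgenic arrays (0.48 ± 0.09, adjusted p = 0.0147 over all probe sets).

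Of 10 Frizzled genes 3 rose and 0 fell (30% passed, beside 7.71% of all genes). Frizzleds are seven-pass membrane receptors, and by sequence Fzd1, Fzd2 and Fzd7 form one subgroup and Fzd5 and Fzd8 another. Fzd7 read 4.44, 4.61 and 4.53 on wildtype and 5.92, 5.36 and 5.53 on transgenic arrays. It was 2.11-fold higher (1.08 ± 0.13, adjusted p = 0.000917), and D6/Zbtb20S replicate 1 was the highest of the 3. Fzd1 read 6.59, 6.33 and 6.81 on wildtype and 7.50, 7.27 and 7.09 on transgenic arrays. It was 1.63-fold higher (0.71 ± 0.14, adjusted p = 0.0129), with the closest arrays of the genotypes at 6.81 and 7.09. Fzd8 read 4.25, 3.99 and 4.29 on wildtype and 4.70, 4.52 and 4.59 on transgenic arrays, 1.35-fold higher (0.43 ± 0.10, adjusted p = 0.0284). Its second probe set, under the array median, was higher too (0.57 ± 0.08, adjusted p = 0.00378 over all probe sets). The second probe sets of Fzd1 and Fzd7, both under the array median, had changes of 0.04 and -0.11 and did not pass, and as means of their probe sets the genes changed by 0.37 and 0.48 (adjusted p = 0.0198 and 0.0449). Leaving out wildtype replicate 2 or D6/Zbtb20S replicate 1 ended the call of Fzd1 (adjusted p = 0.0524 and 0.0643), and leaving out wildtype replicate 2 or any 1 transgenic array ended that of Fzd8 (adjusted p from 0.0528 to 0.125).

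The third gene of the Fzd1 subgroup, Fzd2, had a change of 0.19 (95% interval -0.04 to 0.41) and did not pass. Fzd3, a receptor known for axon tract formation, read 7.99, 7.91 and 8.09 on wildtype and 7.63, 7.58 and 7.83 on transgenic arrays (-0.31 ± 0.09, adjusted p = 0.0781). The genotypes did not overlap on that probe set, and Fzd3 passed with equal array medians (adjusted p = 0.0414), with quantile normalization (adjusted p = 0.0494) and without D6/Zbtb20S replicate 3 (adjusted p = 0.0437). Over the mean of its 6 probe sets the change was 0.03 (adjusted p = 0.902). Fzd4, Fzd5, Fzd6, Fzd9 and Fzd10 had changes from -0.19 to 0.16. The co-receptor Lrp6 had a change of 0.12 and Lrp5, which was under the array median, one of -0.13, and 0 of these 2 had an unadjusted p under 0.05. On the second, dim Lrp6 probe set the change was 0.57 ± 0.14 (adjusted p = 0.0596 over all probe sets).

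**Figure D2:**
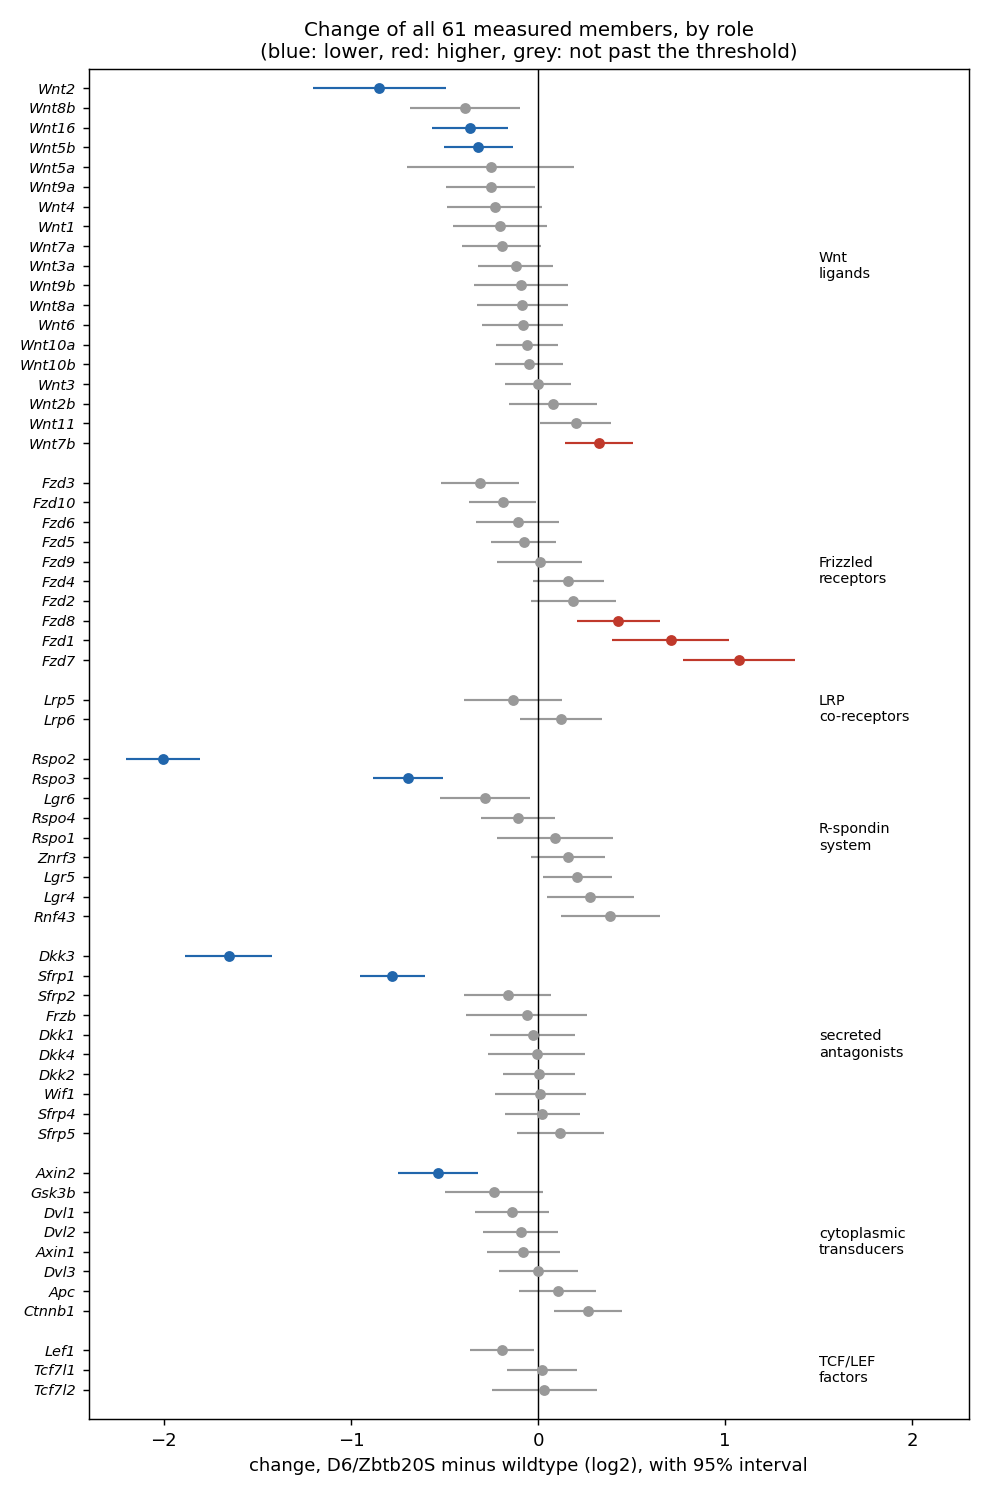
Change between genotypes (x axis, log2, D6/Zbtb20S minus wildtype) for each of the 61 members, grouped by role, with points at the limma estimate and bars spanning its 95% interval. Blue and red points are the 8 members lower and the 4 members higher at an adjusted p under 0.05, and grey points did not pass. The points farthest from 0 are Rspo2 and Dkk3 on the left and Fzd7 on the right.

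The start regions of Fzd7 and Fzd1 are shown because these related receptors rose together. RefSeq gives, for build GRCm38.p6, 250 bases before and 50 after each start site. The windows were searched on both strands for the core that TCF/LEF factors bind, spelled CTTTGAA or CTTTGTA or CTTTGAT or CTTTGTT, and matches on either strand are in capitals. Fzd7 lies on the plus strand at chr1:59481897-59482196 and Fzd1 on the minus strand at chr5:4758167-4758466, each printed 5′ to 3′ along its gene.
Fzd7: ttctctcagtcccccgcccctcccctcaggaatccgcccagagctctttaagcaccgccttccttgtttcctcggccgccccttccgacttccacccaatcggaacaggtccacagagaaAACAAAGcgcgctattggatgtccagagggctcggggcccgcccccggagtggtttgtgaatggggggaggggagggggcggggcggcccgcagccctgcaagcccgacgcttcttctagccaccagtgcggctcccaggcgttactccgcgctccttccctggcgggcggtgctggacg
Fzd1: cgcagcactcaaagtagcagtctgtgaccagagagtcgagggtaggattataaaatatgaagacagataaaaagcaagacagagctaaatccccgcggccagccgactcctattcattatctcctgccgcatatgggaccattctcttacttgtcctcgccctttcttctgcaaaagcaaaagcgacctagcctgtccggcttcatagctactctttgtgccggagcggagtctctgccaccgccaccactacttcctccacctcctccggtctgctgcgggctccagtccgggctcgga
The Fzd7 window held 1 match, which began at base 121 of 300, and the Fzd1 window held none of these letters. Such a match is a description of the window and not a binding site. A match was held by 7 of 41 members with a window (17.1%), beside 15.5% of the 14367 measured genes with one. Of the 12 members that passed, Rspo2, Rspo3, Dkk3, Sfrp1, Fzd8 and Wnt7b had no window in the sequences used here. Windows of Wnt2, Wnt16 and Wnt5b are not printed, and 1 Wnt5b window held a match, CTTTGAT from base 180.

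Of 19 Wnt ligands 3 fell and 1 rose (21.1% passed, beside 7.71% of all genes), 0 of these 4 by 2-fold. The median size of the change was 0.20 beside 0.10 over all genes. The genotypes did not overlap in 7 ligands (36.8%), beside 26.1% of all genes. In both genotypes 13 ligands were under the array median, where RMA signals can be compressed. Wnt2, a ligand of the canonical branch, read 4.08, 3.98 and 4.07 on wildtype and 3.24, 2.81 and 3.54 on transgenic arrays. It was 1.80-fold lower (-0.85 ± 0.16, adjusted p = 0.00992), with a wider spread among transgenic arrays, all of which lay under the array median. Wnt7b, a ligand known for brain vessel growth and dendrite development, read 6.87, 6.82 and 6.71 on wildtype and 7.06, 7.12 and 7.19 on transgenic arrays. It was 1.25-fold higher (0.32 ± 0.08, adjusted p = 0.04), and its second probe set had a change of 0.19. Wnt16 read 2.87, 3.15 and 2.93 on wildtype and 2.62, 2.61 and 2.64 on transgenic arrays (-0.37 ± 0.09, adjusted p = 0.0392). Wnt5b, a ligand of the branch that works without beta-catenin, read 2.89, 2.94 and 2.95 against 2.55, 2.72 and 2.54 (-0.32 ± 0.08, adjusted p = 0.0441). The second Wnt5b probe set, dimmer still, had a change of -0.02 (limma adjusted p = 0.961 over all probe sets). As means of their probe sets both Wnt7b and Wnt5b lost the call. Wnt7b lost its call without any 1 of the 6 arrays (adjusted p from 0.0503 to 0.128) and Wnt5b without any but D6/Zbtb20S replicate 2 (up to 0.16). Wnt16 lost its call without any but wildtype replicate 1 (up to 0.16), and with the replicate number as a block all 3 lost it (adjusted p of 0.061 for Wnt16, 0.0873 for Wnt7b and 0.0774 for Wnt5b).

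The other 15 ligands had changes from -0.39 to 0.20. Wnt8b, a ligand of the embryonic cortical hem and hippocampal primordium, read 2.91, 2.86 and 3.35 on wildtype and 2.79, 2.57 and 2.60 on transgenic arrays, all under the array median (-0.39 ± 0.13, adjusted p = 0.12). Wnt3a and Wnt2b, known from the same embryonic source, were under the array median too, with changes of -0.12 and 0.08. Wnt7a, the closest relative of Wnt7b, read 6.15, 6.06 and 5.97 on wildtype and 5.71, 5.91 and 5.97 on transgenic arrays (-0.20 ± 0.09, adjusted p = 0.286). Its second bright probe set changed the opposite way, by 0.27 ± 0.08 (adjusted p = 0.113 over all probe sets), so its direction was not settled. Wnt4 had a change of -0.23 and Wnt5a one of -0.25. On Wnt5a wildtype replicate 3 read 5.39, above the 4.49 and 4.74 of the other wildtype arrays.

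In the cytoplasm 1 of 8 members fell and 0 rose (12.5% passed, beside 7.71% of all genes). Axin2 is a scaffold of the beta-catenin destruction complex and a widely used target gene of the canonical branch. It read 5.82, 5.99 and 6.12 on wildtype and 5.40, 5.40 and 5.53 on transgenic arrays, with no overlap. It was 1.45-fold lower (-0.53 ± 0.10, adjusted p = 0.00792), while its constitutive relative Axin1 changed by -0.08. The second Axin2 probe set read 1.60 to 1.91 on all arrays, far under the array median, with a change of 0.03. The mean of both probe sets changed by -0.25 (adjusted p = 0.0496). Dvl1, Dvl2 and Dvl3, the Dishevelled genes, had changes from -0.14 to 0.00, and Apc one of 0.10.

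The start region of Axin2 is shown since its transcript reads out the canonical branch. The RefSeq window lies on the plus strand of GRCm38.p6 at chr11:108920099-108920398, with the same search applied.
Axin2: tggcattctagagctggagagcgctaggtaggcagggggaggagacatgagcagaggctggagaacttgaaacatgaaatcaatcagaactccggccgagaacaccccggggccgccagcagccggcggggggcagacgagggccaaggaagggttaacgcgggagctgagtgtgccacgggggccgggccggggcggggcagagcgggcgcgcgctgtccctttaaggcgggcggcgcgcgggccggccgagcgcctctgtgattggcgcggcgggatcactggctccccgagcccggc
It held no match, so no letters are in capitals. That says only that these letters are not in this window.

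Ctnnb1, the beta-catenin gene, read 10.57, 10.42 and 10.57 on wildtype and 10.77, 10.84 and 10.74 on transgenic arrays. That change of 0.27 ± 0.08 did not pass (adjusted p = 0.0829), although the arrays did not overlap. Both other Ctnnb1 probe sets were higher over all probe sets, by 0.66 ± 0.10 (adjusted p = 0.00766) and 0.43 ± 0.10 (adjusted p = 0.0375), and the mean of the 3 was higher by 0.45 (adjusted p = 0.00454 over all genes). Gsk3b, the kinase that marks beta-catenin for destruction, had probe sets that went both ways. The brightest read 9.50, 9.23 and 9.04 on wildtype and 8.97, 9.13 and 8.97 on transgenic arrays (-0.24 ± 0.12, adjusted p = 0.307). A dimmer probe set, which read 5.97, 6.39 and 6.12 against 7.01, 7.23 and 7.07, was 1.92-fold higher (adjusted p = 0.00292 over all probe sets), and another was 1.31-fold higher (adjusted p = 0.0368). On a further one, at 6.51, 6.59 and 6.90 against 6.06, 5.99 and 6.43, the change was -0.51 ± 0.14 (adjusted p = 0.0942). The positions of these probe sets in the transcripts were not used here.

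Over all 124 member probe sets 17 passed, 9 higher and 8 lower, beside 5.52% of all probe sets (3.40% higher and 2.11% lower). They belonged to 12 genes, which were not the same 12 as by gene. Ctnnb1, Gsk3b and Sfrp5 entered, and Wnt16, Wnt7b and Wnt5b did not pass in the larger table (adjusted p of 0.0623, 0.0612 and 0.0673).

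**Figure D3:**
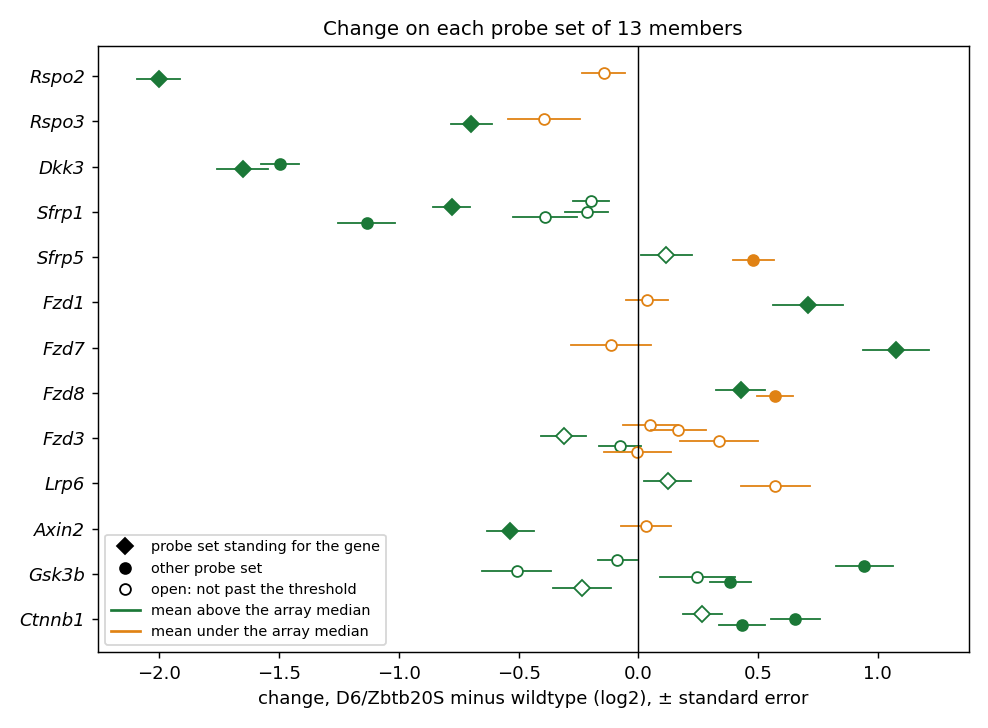
Change (x axis, log2, D6/Zbtb20S minus wildtype) on every probe set of 13 members, with bars of ± 1 standard error. Diamonds are the probe sets that stand for their genes, filled marks passed over all probe sets, and orange marks have a mean under the array median. Gsk3b has filled marks on the right and open ones on the left, all 5 Sfrp1 and all 3 Ctnnb1 marks lie on 1 side, and the second probe sets of Rspo2, Fzd1, Fzd7 and Axin2 are dim and close to 0.

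At the nuclear end, 0 of 3 TCF/LEF factors passed in limma, beside 7.71% of all genes. Of the 3, only Lef1 had an unadjusted p under 0.05. Lef1 read 5.10, 5.06 and 5.08 on wildtype and 4.80, 4.92 and 4.94 on transgenic arrays, which did not overlap (-0.19 ± 0.08, adjusted p = 0.19). Tcf7l1, known as the repressor of the family, had a change of 0.02, and Tcf7l2, which is strong in thalamus, one of 0.03.

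Other genes of the pathway were read from lists of 98 genes outside the members, of which 94 were measured. Of these 6 were higher and 9 lower (16%), beside 7.71% of all genes, with a median change of -0.04. The polarity genes Prickle1 and Prickle2, cytoplasmic proteins of the planar cell polarity branch, had the lowest p-values of the 94. Prickle2 read 7.64, 7.86 and 7.76 on wildtype and 6.32, 6.21 and 6.35 on transgenic arrays, 2.76-fold lower (-1.46 ± 0.09, adjusted p = 1.31e-05). Prickle1 read 6.47, 6.49 and 6.21 against 5.11, 5.06 and 5.13, 2.45-fold lower (-1.29 ± 0.09, adjusted p = 3.97e-05), while its other 2 probe sets were dim and did not pass. As the mean of all 3 it changed by -0.46 (adjusted p = 0.00651). In the polarity and Wnt/calcium list, which held 18 genes beside the member Fzd8, the formin gene Daam2 was higher (0.41 ± 0.09). In that list 15 did not pass, and the share that passed was 16.7%.

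Of 10 modulators that bind Dishevelled, 2 rose and 3 fell (50% passed, beside 7.71% of all genes). The inhibitor Cxxc4 was 1.70-fold lower (-0.77 ± 0.09, adjusted p = 0.000532), its relative Cxxc5 1.34-fold and Dact1 1.43-fold lower. Ankrd6, the vertebrate diversin, read 6.53, 6.17 and 6.75 on wildtype and 7.41, 7.34 and 7.33 on transgenic arrays, 1.84-fold higher (0.88 ± 0.13, adjusted p = 0.00295), and 1 of its other 2 probe sets was called higher too (0.57 as the mean of all 3). Ccdc88c was 1.35-fold higher. Its 3 other probe sets did not pass, with changes from -0.03 to 0.15, nor did the second one of Cxxc5 (0.01) or the 2 others of Cxxc4 (-0.07 and -0.30). As means of their probe sets Cxxc4 changed by -0.38 (adjusted p = 0.0168), while Ccdc88c (0.14, adjusted p = 0.312) and Cxxc5 (-0.21, adjusted p = 0.133) lost the call. Dact1 was outside the rule for naming and was added after its value was seen.

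Of 20 textbook target genes of beta-catenin outside the members, 2 rose, 2 fell and 16 did not pass. The share that passed was 20%, beside 7.71% of all genes. The helix-loop-helix inhibitor Id2 read 10.51, 10.55 and 10.34 on wildtype and 9.34, 9.41 and 8.87 on transgenic arrays, 2.40-fold lower (-1.26 ± 0.14, adjusted p = 0.000436), as were both its other probe sets. The adhesion gene Nrcam was 1.42-fold lower. The growth factor gene Fgf18, under the array median in wildtype tissue, read 3.08, 2.83 and 3.46 against 3.98, 3.93 and 4.27, 1.92-fold higher (adjusted p = 0.00528), and the hyaluronan receptor gene Cd44 was 1.44-fold higher (0.52, or 0.33 as the mean of its probe sets). With Axin2 counted, the target genes that passed went both ways. In the lists for Wnt secretion (6), extracellular modulators (16) and nuclear partners (13), the glypican gene Gpc4 and the Groucho-related Tle5 were 1.32-fold and 1.29-fold lower. The secreted axon guidance gene Draxin was 1.33-fold higher. The shares that passed in these lists were 16.7%, 6.25% and 7.69%, beside 7.71% of all genes. In the list for beta-catenin destruction 0 of 14 passed in limma, with 4 at an unadjusted p under 0.05. As means of their probe sets Gpc4, Nrcam and Daam2 lost the call too (adjusted p = 0.0508, 0.227 and 0.316). Gpc4, Draxin, Tle5, Nrcam, Cd44 and Daam2 each lost the call in 4 or more of the 6 leave-one-out fits, the adjusted p reaching 0.0884, 0.0962, 0.189, 0.139, 0.153 and 0.115. Prickle1, Prickle2, Id2, Cxxc4, Ankrd6 and Fgf18 kept it in all 6, Cxxc5 lost it without wildtype replicate 2, Dact1 without wildtype replicate 1 or 2, and Ccdc88c without D6/Zbtb20S replicate 1 or 2 (up to 0.0799).

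**Figure D4:**
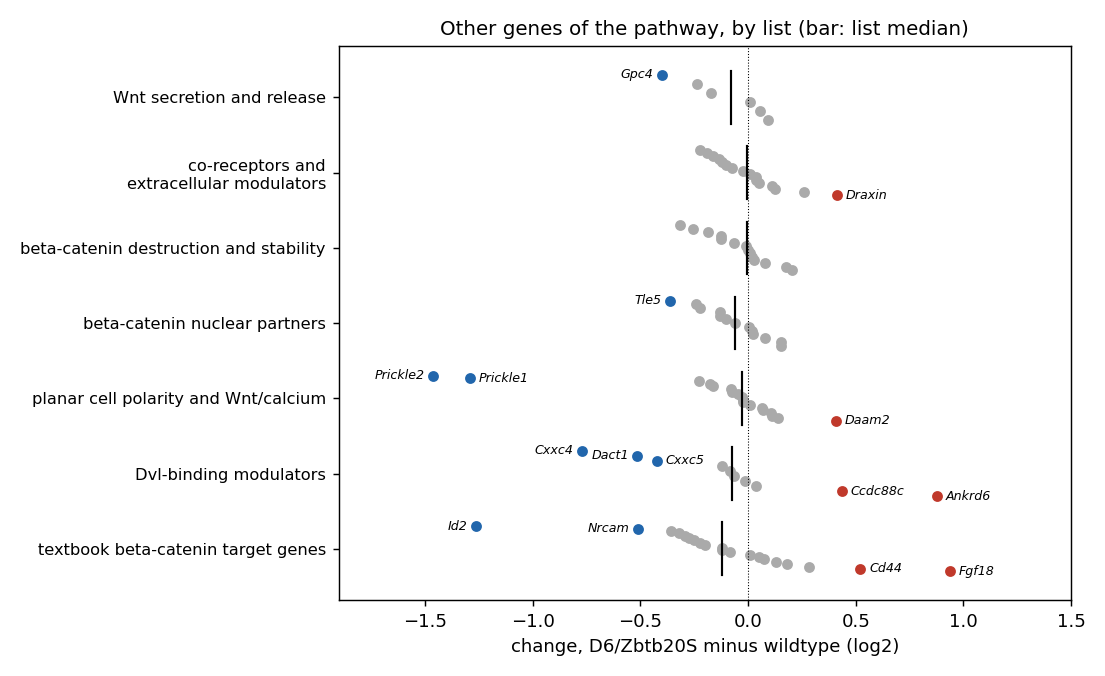
Change (x axis, log2, D6/Zbtb20S minus wildtype) of pathway genes outside the members, 1 row per list, with blue points lower and red points higher at an adjusted p under 0.05, grey points not past it, and a black bar at each list's median. Prickle2, Prickle1 and Id2 lie farthest to the left, Fgf18 and Ankrd6 farthest to the right, and the medians lie between -0.12 and -0.01.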

How the data were processed

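Signals were measured on 6 arrays, 3 per genotype, each from RNA of 7 pooled animals. The values, as deposited by the authors, are log2 signals of probe sets. RMA and limma are named in the submitters' processing notes, and versions, build and annotation are not given in the sources used here. The log2 scale was taken from the range of the values, 0.57 to 12.71. Array medians were 3.83 to 3.97, so the last scaling and any centring stay unknown, and the number of arrays limits precision.

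Of 45101 probe sets, 64 controls were left out. Names came from the platform annotation: 34945 probe sets had 1 symbol, 932 several and 9160 none. Each of the 18193 genes was read on its brightest probe set. Differences (D6/Zbtb20S minus wildtype) were tested by limma (version 3.58.1, under R 4.3.3) over all genes or all probe sets, with Benjamini-Hochberg adjustment, and ± beside a change gives the standard error. Every adjusted p is from such a limma fit, over all genes unless probe sets are named. The fit was tested on simulated data. No block was used, since nothing in the labels says that a replicate number is shared between genotypes. Deviations of samples with the same number correlated at r of -0.22, 0.18 and -0.01 for replicates 1, 2 and 3.

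Named were all members, with arrays for those past the threshold and the next 5, and at most 4 passing genes per further list. Array values of Lef1, Wnt7a, Wnt5a, Gsk3b and the second Sfrp5 probe set were given outside that rule. Members, lists and tests were chosen with earlier results of these data known. Promoter windows came from RefSeq. Figures were drawn with matplotlib 3.10.9.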

Additional observations from a re-analysis of the deposited data

How the results depend on the processing

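The counts were recomputed under 14 alternatives. Rspo2, Dkk3, Sfrp1 and Rspo3 kept direction and call in all 14, and Fzd7, Axin2 and Wnt2 in all but the ordinary linear model without empirical Bayes (adjusted p of 0.0948, 0.114 and 0.181). That model called 0 members higher and 4 lower (7 and 11 at an unadjusted p under 0.05, against 9 and 14 in limma), 0 other pathway genes higher and 3 lower (9 and 14 unadjusted), 117 genes higher and 150 lower, and 1 member probe set higher and 4 lower. With array weights it was 8 members higher, 17 other pathway genes lower, 1404 genes higher, 1303 lower and 14 member probe sets lower. The cause was not tested.

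With 1 array left out, 1 to 4 members were higher and 6 to 7 lower, 376 to 922 genes were higher and 401 to 634 lower, 2 to 5 other pathway genes were higher and 4 to 9 lower, and 4 to 8 member probe sets were higher and 6 to 9 lower. With the replicate number as a block 3 members were higher and 6 lower, 9 of the 12 shared, with calls lost by Wnt16, Wnt7b and Wnt5b. Not every array correlated best with its own number. With equal array medians or quantile normalization 10 of the 12 kept their call, Wnt7b (adjusted p = 0.0684 and 0.0592) and Wnt5b (0.0619 and 0.0625) losing it. Of the 12 members past the threshold and the next 5, Fzd3 changed sign, to 0.027 as the mean of its probe sets. The probe sets of Gsk3b and Tcf7l2 also averaged to the opposite sign of the one that stands for the gene. For 24 of the 61 members both genotypes were under the array median, where changes can be compressed.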
